A study of Mus musculus with 6 samples.

Results

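Mfsd6, Fndc3b, Tiprl and Ttc17 are 4 genes whose array signals were higher in Melan-a melanocytes transfected with siDicer than in cells given siScr. They were chosen for that rise, so the siDicer to siScr difference is given for them as a description. The choice took rows whose platform annotation gave a single symbol equal to one of the 4 names, and the row of highest mean where a gene had several. Each gene had 1 row, and all 4 were found among 7486 genes with a row of their own and 16383 rows in all. Every gene whose values are given below lies on chromosome 1, 2, 3 or 4. Shares over all rows, rankings and searches cover these 16383 rows and need not hold for the whole genome. The tested cells were Melan-a at 24 hours after transfection with siDicer, a small interfering RNA against Dicer (3 arrays). They were set against Melan-a at the same time after siScr, a control siRNA (3 arrays). Melan-a is an immortal line of pigmented C57BL/6 mouse melanocytes, here from a single line labelled female, and both groups grew in medium with serum and the phorbol ester TPA and received the same lipid and magnetic transfection reagents. In both groups replicate 1 was at passage 47, replicate 2 at passage 54 and replicate 3 at passage 56. Nothing in the labels ties the replicates to separate animals, so p-values measure the spread between cultures of 1 line.

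Dicer is the ribonuclease that cuts hairpin precursors into mature microRNAs. MicroRNAs guide Argonaute proteins to messenger RNAs and lower their stability or translation, so transcripts can rise when Dicer is reduced, directly or through other genes. Dicer1 itself was not analysed here, and no result below shows which of the 4 genes a microRNA binds. The 4 proteins have little in common by known function. Mfsd6 is a membrane protein of the major facilitator superfamily, described in mouse macrophages as a receptor for MHC class I molecules. Fndc3b, also called Fad104, is a membrane protein with fibronectin type III domains, known in mouse for its part in fat cell differentiation. Tiprl binds the catalytic subunits of PP2A-type serine/threonine phosphatases in human cells, and its yeast relative Tip41 acts in the TOR pathway. Ttc17 carries tetratricopeptide repeats and is tied to actin polymerisation and primary cilium formation in human cells and zebrafish.

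The promoters are shown first because the 4 genes were grouped by signal alone, and the sequence just before the start site is a property that the choice did not use. Each sequence is the 250 bases before the first listed RefSeq start in build GRCm38.p6, read 5′ to 3′ on the gene's own strand, which was the minus strand for all 4. All 4 genes matched the RefSeq promoter table by symbol. Capitals mark the GC box GGGCGG, the ETS core CCGGAAG, the cAMP response element letters TGACGTC and the YY1 core ATGGCGG, each searched on both strands. The windows are chr1:52727359-52727608 for Mfsd6, chr3:27710453-27710702 for Fndc3b, chr1:165236959-165237208 for Tiprl and chr2:94406690-94406939 for Ttc17.
Mfsd6: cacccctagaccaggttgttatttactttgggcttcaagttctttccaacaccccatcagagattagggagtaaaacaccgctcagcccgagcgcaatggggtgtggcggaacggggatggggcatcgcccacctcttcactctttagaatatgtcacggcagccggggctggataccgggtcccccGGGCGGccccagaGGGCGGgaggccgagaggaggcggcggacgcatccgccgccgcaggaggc
Fndc3b: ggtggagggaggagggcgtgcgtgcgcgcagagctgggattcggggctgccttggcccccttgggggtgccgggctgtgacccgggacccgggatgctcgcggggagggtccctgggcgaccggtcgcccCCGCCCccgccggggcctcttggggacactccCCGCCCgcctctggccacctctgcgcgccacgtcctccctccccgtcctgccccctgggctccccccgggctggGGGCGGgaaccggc
Tiprl: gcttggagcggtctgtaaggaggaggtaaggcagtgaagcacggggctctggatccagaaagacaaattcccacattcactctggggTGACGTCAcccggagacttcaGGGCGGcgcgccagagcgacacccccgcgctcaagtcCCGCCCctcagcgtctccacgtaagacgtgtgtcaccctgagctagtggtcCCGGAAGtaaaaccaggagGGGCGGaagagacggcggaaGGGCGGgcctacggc
Ttc17: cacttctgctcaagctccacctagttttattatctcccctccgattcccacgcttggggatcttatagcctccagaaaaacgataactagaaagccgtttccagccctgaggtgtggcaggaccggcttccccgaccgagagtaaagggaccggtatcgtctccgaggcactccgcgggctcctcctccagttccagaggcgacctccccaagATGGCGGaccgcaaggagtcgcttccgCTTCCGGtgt

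No searched motif was present in all 4 windows. Mfsd6 and Tiprl each had 2 windows listed, of which only the first was searched. The GC box occurred 2 times for Mfsd6, 3 times for Fndc3b, 4 times for Tiprl and 0 times for Ttc17, and 42.7% of 17492 protein-coding promoters of the same length held at least 1. The ETS core occurred once each for Tiprl and Ttc17 and was held by 9.13% of promoters. Tiprl alone among the 4 held the cAMP response element letters, in a palindrome that was counted on both strands, and 3.46% of promoters held them. Ttc17 alone among the 4 held the YY1 core, which 2.51% of promoters held. The CCAAT box CCAAT, the TATA box TATAAA and the E box CACGTG were at 0 in all 4 windows, against 36.3%, 12.4% and 6.64% of promoters. A match describes letters in a window and shows no binding. The windows had 19 CpG dinucleotides for Mfsd6, 25 for Fndc3b, 20 for Tiprl and 18 for Ttc17, where the median promoter had 10. These counts stood at percentiles 74.4, 87.0, 76.9 and 71.4 of the promoters. The GC content of the windows was 63.2%, 79.2%, 63.2% and 58.4% in the same gene order, where the median was 55.2%. The 17492 promoters were not limited to genes with a row or a signal on these arrays. The genes themselves are long, with RefSeq spans of 71.1 kb for Mfsd6, 295 kb for Fndc3b, 70.4 kb for Tiprl and 106 kb for Ttc17, where the median of 21900 protein-coding genes was 17.1 kb.

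Values are log2 signals per row, each row a transcript cluster of the array. Array medians lay between 4.58 and 4.64, and arrays correlated with r from 0.994 to 0.997. Background was gauged from the 426 rows of odorant and vomeronasal receptors, whose 95th percentile was 4.22, and the rows of all 4 genes lay above it on every array. RNA integrity numbers ran from 9.7 to 10 and were lowest at passage 54 in both groups. Of 22 listed melanocyte markers only 6 had a row of their own, so the others were not measured. Of these 6, 0 passed the threshold described below without the replicate block and 2 rose with it, where 0.757% of all rows rose with it. Tyrp1, a melanin synthesis enzyme, averaged 12.86 in siDicer and 12.83 in siScr cells, and Pax3, a transcription factor of the lineage, averaged 10.57 in both groups. The melanosome proteins Mlph and Slc24a5 averaged 10.21 and 10.71 in siDicer cells, against 10.32 and 10.62 in siScr cells. The markers that rose with the block were Mreg, a regulator of melanosomes, and the transcription factor Lef1, with log2 differences of 0.62 and 0.52 (limma, adjusted p = 0.0435 and 0.0337, against 0.0877 and 0.212 without it). Of other cell types, 0 of 6 measured fibroblast markers, 0 of 7 keratinocyte markers and 0 of 9 immune cell markers passed, and 0, 1 and 2 of them had an unadjusted p under 0.05 (2 among the melanocyte markers), where 10.2% of all rows did. These lists named 13 fibroblast, 14 keratinocyte and 15 immune markers, and the rest had no row of their own. The median level over the immune list was 4.42 to 4.61 on siDicer arrays and 4.61 to 4.65 on siScr arrays, and 8 of its 9 differences were below 0. The lowest were those of the complement gene C1qa and the Fc receptor subunit Fcer1g, at -0.29 and -0.25 (limma, adjusted p = 0.387 and 0.306). Next came the complement gene C1qb at -0.20 (adjusted p = 0.495). In these 3 of the 9 the siDicer arrays all lay below the siScr arrays. The share of all rows that did so was not computed, so nothing is read from that count. Of the 9 rows 5 lay above the background gauge. Ptprc, the pan-leukocyte surface phosphatase, averaged 2.84 in siDicer and 2.85 in siScr cells, below the background gauge. C1qa, Fcer1g, C1qb and Ptprc were named after their values were seen. For the fibroblast list the median was 5.10 to 5.48 on siDicer arrays and 5.04 to 5.34 on siScr arrays, and for the keratinocyte list 3.79 to 3.93 and 3.96 to 4.02. The keratinocyte medians lay below the background gauge of 4.22. Above it lay 3 of the 7 keratinocyte rows and 4 of the 6 fibroblast rows. The part of other cell types in the results was not tested.

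Mfsd6 read 8.05, 7.85 and 8.15 on the siDicer arrays at passages 47, 54 and 56, against 7.26, 7.22 and 7.29 on the siScr arrays. The siScr arrays were close together and the siDicer arrays more spread, with the passage 54 array lowest in both groups. The groups did not overlap: the lowest siDicer array lay 0.55 above the highest siScr array. The mean was 8.02 ± 0.16 in siDicer and 7.26 ± 0.04 in siScr cells (SD, n = 3 each), a log2 difference of 0.76 with a standard error of 0.08, or 1.69-fold. Paired by passage, the differences were 0.79, 0.63 and 0.86.

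Fndc3b read 8.96, 9.21 and 9.09 on the siDicer arrays at passages 47, 54 and 56, against 8.29, 8.51 and 8.23 on the siScr arrays. Here the passage 54 array was the highest of its group with either siRNA, the reverse of its place for Mfsd6. The groups did not overlap, with a gap of 0.45. The mean was 9.09 ± 0.12 in siDicer and 8.34 ± 0.15 in siScr cells (SD, n = 3 each), a log2 difference of 0.74 with a standard error of 0.09, or 1.67-fold. Paired by passage, the differences were 0.67, 0.70 and 0.86.

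Tiprl read 7.92, 8.07 and 8.07 on the siDicer arrays at passages 47, 54 and 56, against 7.21, 7.55 and 7.31 on the siScr arrays. The siScr array at passage 54 stood above the other 2 of its group, and the pair at that passage differed least. The groups did not overlap, and their gap of 0.37 was the narrowest of the 4 genes. The mean was 8.02 ± 0.09 in siDicer and 7.36 ± 0.17 in siScr cells (SD, n = 3 each), a log2 difference of 0.66 with a standard error of 0.10, or 1.58-fold. Paired by passage, the differences were 0.71, 0.52 and 0.76.

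Ttc17 read 8.60, 8.57 and 8.56 on the siDicer arrays at passages 47, 54 and 56, against 7.97, 7.92 and 7.85 on the siScr arrays. It was the steadiest of the 4 genes between cultures of a group, with a pooled within-group SD of 0.04 where the median row above the background gauge had 0.10. The groups did not overlap, with a gap of 0.59. The mean was 8.57 ± 0.02 in siDicer and 7.91 ± 0.06 in siScr cells (SD, n = 3 each), a log2 difference of 0.66 with a standard error of 0.06, or 1.58-fold. Paired by passage, the differences were 0.63, 0.64 and 0.70.

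**Figure D1:**
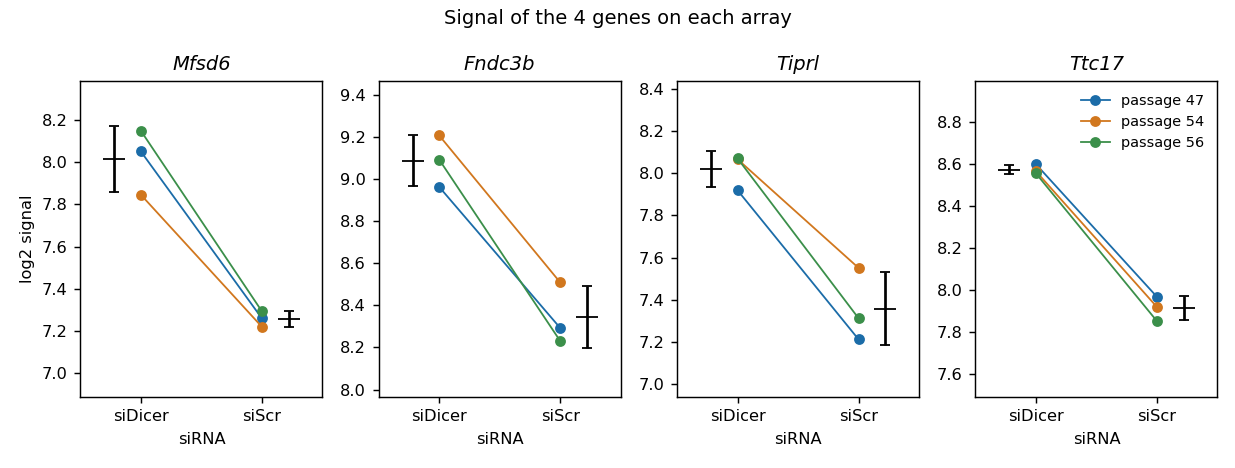
Log2 signal of Mfsd6, Fndc3b, Tiprl and Ttc17 (vertical axes, 1 panel a gene, all spanning the same number of log2 units from different origins) in siDicer and siScr cells, with lines joining arrays of the same passage and bars giving the mean ± SD of 3 arrays. Every line falls towards siScr, and the passage 54 arrays are the lowest of their groups for Mfsd6 and the highest for Fndc3b in both groups.

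All 4 genes passed an adjusted p of 0.05 in limma, as their choice required, and nothing further is read from that count. Over all 16383 rows 0.146% passed upward and 0.0671% downward, and 7.57% had every siDicer array above every siScr array. Among rows above the background gauge that last share was 10.5%. The rows numbered 24 higher and 11 lower, against 19 and 14 after quantile normalization and 19 and 15 after cyclic loess. Adjusted p ran from 0.0143 for Ttc17 to 0.044 for Tiprl, and with replicate number as a block from 0.0226 for Mfsd6, Fndc3b and Ttc17 to 0.0246 for Tiprl. With that block 0.757% of rows passed upward and 0.238% downward. The 95% intervals of the 4 differences overlapped, at 0.57 to 0.95 for Mfsd6, 0.53 to 0.96 for Fndc3b, 0.44 to 0.88 for Tiprl and 0.52 to 0.80 for Ttc17. An array reads the whole culture, so more RNA in each cell and more cells that hold it cannot be told apart. Leaving out 1 array kept every difference at 0.59 or more but ended most calls. Mfsd6 stayed past the threshold only without siDicer replicate 2 (adjusted p = 0.035). Fndc3b and Tiprl stayed past it only without siScr replicate 2 (adjusted p = 0.0373 for both). Ttc17 stayed past it without siScr replicate 1 (0.0498) and without siScr replicate 2 (0.0373). In the other fits that left out an array, adjusted p ran up to 0.147 for Mfsd6, 0.158 for Fndc3b, 0.224 for Tiprl and 0.129 for Ttc17.

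The next ranking took the 21 named genes past the threshold with higher siDicer groups that did not overlap, leaving out Gm and Rik symbols. In it Mfsd6 and Fndc3b came first and second and Tiprl and Ttc17 seventh and eighth. By difference alone among all rows with 1 symbol, Mfsd6 ranked 2, Fndc3b 3, Tiprl 9 and Ttc17 10. In the ranking of 21 genes the 4 places between were held by Itgav, Snap23, Fkbp7 and Ap4b1, with log2 differences from 0.71 to 0.67. Just below Ttc17 came Tmco1 and Alg2, both at 0.59.

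Every passage held 1 array of each siRNA, so the 4 genes could also be compared between earlier and later cultures of the line. This comparison is not independent of their choice. In the fit without the replicate block, differences between passages count as spread within a group, and genes with large ones were less likely to pass. The passage values are therefore a description, and nothing is read from the count of 0. Of the 4 genes 0 passed for the mean of passages 54 and 56 minus passage 47 (limma with siRNA as a term), where 0.287% of all rows passed upward and 0.0549% downward. At an unadjusted p under 0.05 only Tiprl would have passed, as 2536 of 16383 rows did (15.5%).

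Tiprl averaged 7.57 at passage 47, 7.81 at passage 54 and 7.69 at passage 56, 1 array of each siRNA at each. Its later minus earlier difference was 0.18 ± 0.07 (SE; 95% interval 0.01 to 0.36; unadjusted p = 0.0391, adjusted p = 0.303 in limma). Fndc3b averaged 8.63, 8.86 and 8.66 at these passages, a difference of 0.13 ± 0.07 (interval -0.03 to 0.29, adjusted p = 0.388). For both genes passage 54 was the highest of the 3. Mfsd6 averaged 7.66, 7.53 and 7.72, with passage 54 the lowest, and a difference of -0.03 ± 0.07 (interval -0.20 to 0.14, adjusted p = 0.869). Ttc17 averaged 8.28, 8.24 and 8.20, a difference of -0.06 ± 0.06 (interval -0.20 to 0.08, adjusted p = 0.638). Passage here cannot be told apart from whatever else the 2 cultures of a replicate number shared.

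**Figure D2:**
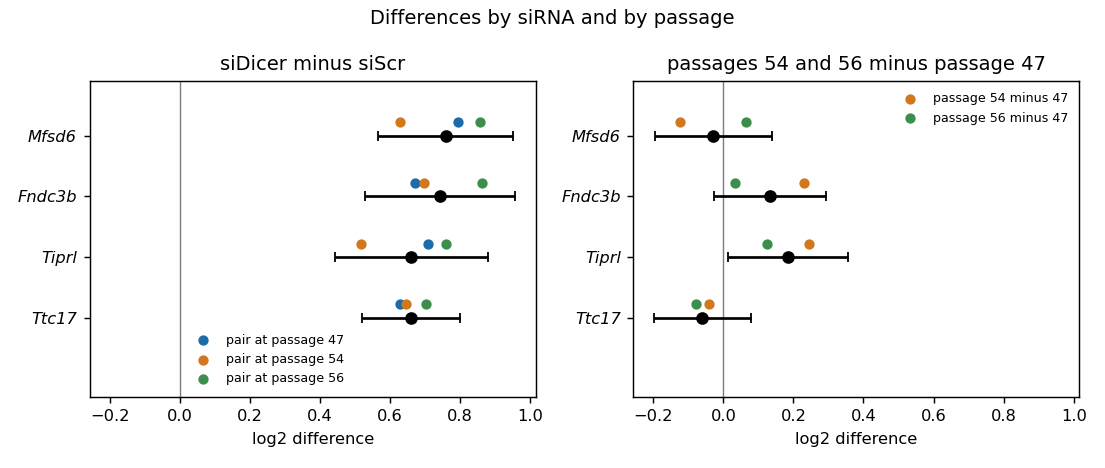
Left, log2 siDicer minus siScr of each gene with its 95% interval in limma (black) and the differences of the 3 pairs of equal passage (coloured). Right, the mean of passages 54 and 56 minus passage 47 with its 95% interval (black) and each later passage minus passage 47 (coloured), on the same horizontal scale. All pair differences lie at or above 0.52, and the passage differences lie between -0.12 and 0.24.

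Once the group means were removed, the 4 genes did not vary as 1 group. Deviations of Fndc3b and Tiprl went together over the 6 arrays (r = 0.85), with siDicer passage 47 the lowest siDicer array for both and siScr passage 54 the highest siScr array for both. Those of Fndc3b and Mfsd6 went opposite ways (r = -0.57), and those of Ttc17 had r of 0.04 with Fndc3b, -0.12 with Mfsd6 and -0.32 with Tiprl. These are descriptions over 6 arrays that share their hybridisation and scaling.

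The genes whose pattern over the 6 arrays was most like each of the 4 were sought among 5117 other named genes above the background gauge. The 3 highest Pearson correlations for each ran from 0.994 to 0.999, over 6 points that mostly reflect the 2 groups. They were picked for likeness to genes chosen for their rise, so their own differences restate that contrast and are given as a description. With passage means removed, none of the 12 was among the 3 highest for its gene. The 2 arrays of a passage then mirror each other, so only the 3 pair differences count. Rows that hardly differed then rank high, such as Gm13641 for Fndc3b (r = 0.999986, difference 0.07). That setting therefore cannot decide whether the likeness holds. As measured, the 3 genes most like Mfsd6 were Dcaf6, a substrate receptor of a cullin ubiquitin ligase, with Tmem87b and Cnnm3. Dcaf6 and Tmem87b rose by 0.51 and 0.42 on the log2 scale (limma, adjusted p = 0.0294 and 0.0453), and Cnnm3 differed by 0.39 (adjusted p = 0.0709). For Fndc3b they were Dbt, a subunit of the branched-chain keto acid dehydrogenase, the integrin subunit Itgav and Spg20, which codes for spartin. Itgav rose by 0.71 (adjusted p = 0.0265), while Dbt and Spg20 differed by 0.51 and 0.37 (adjusted p = 0.05004 and 0.0944). For Tiprl they were the signalling adaptor Traf6, the TFIID subunit Taf3 and the kinase Stk16, with differences of 0.37, 0.29 and 0.71 (adjusted p = 0.0915, 0.177 and 0.0504). For Ttc17 they were Urod, an enzyme of heme synthesis, Golim4, a Golgi membrane protein, and the nuclear receptor Nr4a2. Urod rose by 0.43 (adjusted p = 0.035), while Golim4 and Nr4a2 both differed by 0.38 (adjusted p = 0.0586 and 0.0605). Without any 1 array the calls of Dcaf6, Tmem87b and Urod were lost (adjusted p from 0.0789 to 0.224), and that of Itgav held only without siScr replicate 2 (0.0373). After quantile normalization Dcaf6, Tmem87b and Urod did not pass (adjusted p = 0.0615, 0.0681 and 0.0676). The calls above are from the fit without the replicate block, in which 4 of the 12 passed. With the block 10 of the 12 passed, where 0.757% of all rows passed upward. Traf6 and Taf3 did not (limma, adjusted p = 0.0539 and 0.0959).

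Genes beside the 4 on the chromosome were examined next, as position was not used to choose them. The RefSeq gene table gave, for each gene, the nearest 2 genes with a row on either side. Of these 16 neighbours 1 rose, Dcaf6, where 0.146% of all rows did, and 15 did not pass, with differences from -0.15 to 0.18 and adjusted p of 0.481 or more. With the replicate block Dcaf6 again passed (limma, adjusted p = 0.0282). The lowest adjusted p among the others was then 0.198, for Sft2d2.

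Dcaf6 lies next but one to Tiprl. It read 9.06, 8.94 and 9.08 on the siDicer arrays, against 8.51, 8.48 and 8.57 on the siScr arrays, and the groups did not overlap. Its difference was 0.51 ± 0.07 (SE, limma, adjusted p = 0.0294), a call lost without any 1 array (0.0789 to 0.159), after quantile normalization (0.0615) and after cyclic loess (0.0561). Gpr161, a receptor of the primary cilium, stands between them with a RefSeq span that overlaps that of Tiprl. It read 6.53, 6.45 and 6.50 on the siDicer arrays, against 6.41, 6.44 and 6.46 on the siScr arrays. Those groups overlapped, and the difference was 0.05 (adjusted p = 0.796). On the other side Sft2d2 differed by 0.18 (adjusted p = 0.498) and Tbx19 by -0.02 (adjusted p = 0.953).

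The first row after Fndc3b belongs to Mir3092, a microRNA gene that RefSeq places inside the Fndc3b span on the same strand. Its mature products are shown because a microRNA needs Dicer to mature, while its precursor is cut from a longer transcript. Coordinates are chr3:27584958-27584979 for the 5p arm and chr3:27584915-27584935 for the 3p arm in GRCm38.p6, minus strand, and capitals mark the seed, bases 2 to 8.
mmu-miR-3092-5p: aGGGGAAAaugccuuucuccca
mmu-miR-3092-3p: gAAUGGGGcuguuuccccucc
The seeds of the 2 arms differ. The Mir3092 row read 6.62, 6.72 and 6.40 on the siDicer arrays, against 6.80, 6.76 and 6.62 on the siScr arrays. The groups overlapped, and the difference of -0.15 ± 0.09 did not pass (SE, limma, adjusted p = 0.639), with the sign opposite to that of Fndc3b. Which RNA of the locus that row detects was not tested, and the mature microRNA was not analysed here. The other 3 neighbours of Fndc3b were Ghsr, Tnfsf10 and Tmem212, with differences of -0.09, -0.01 and -0.03.

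Overlapping the RefSeq span of Ttc17 were Itpa-ps1, a pseudogene, and 2810002D19Rik, with differences of -0.11 and 0.09 (limma, adjusted p = 0.721 and 0.704). Mir670 and Mir129b on its other side differed by -0.11 and -0.06. Around Mfsd6, Nemp2 differed by 0.17 with groups that did not overlap (unadjusted p = 0.0436, adjusted p = 0.481). Gm5976, Inpp1 and Hibch there differed by 0.05, 0.10 and -0.06.

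**Figure D3:**
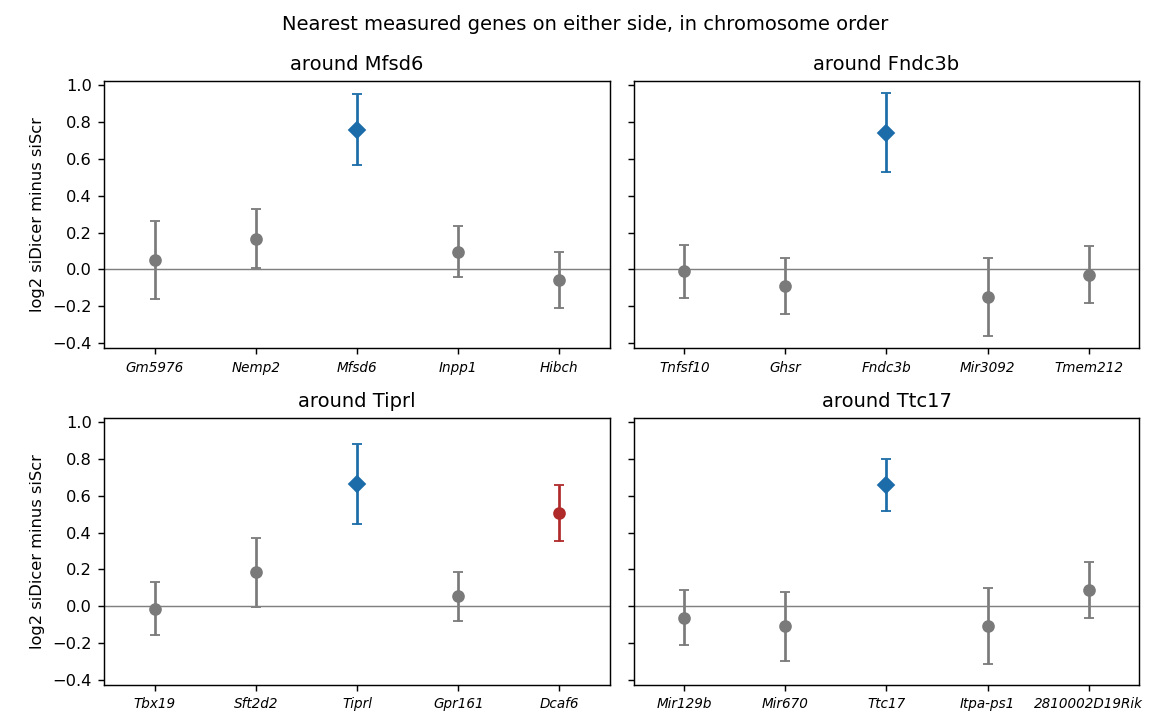
Log2 siDicer minus siScr (vertical axes) with 95% intervals in limma for each gene (diamond) and its nearest 2 measured genes on either side (circles), in chromosome order but not to distance. Dcaf6 beside Tiprl, in red, is past the threshold at 0.51, and all grey circles lie between -0.15 and 0.18.

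Genes related to the 4 by family or function were gathered in 5 lists, leaving out the 4 genes themselves. The major facilitator list held 44 genes, the fibronectin type III list 51 and the PP2A-type phosphatase list 67. The Ttc list held 48 genes and the actin and cilium list 84. Listed genes without a row of their own could not be measured, so the counts below do not cover the whole families. Of the 101 different genes measured in these lists 1 rose and none fell past the threshold, and 19 had an unadjusted p under 0.05 in limma, as did 1667 of all 16383 rows (10.2%). With the replicate block the count was again 1, and for passage 0, with 21 at an unadjusted p under 0.05 (15.5% of all rows). For the fit without the block the background shares were 0.146% upward and 0.0671% downward. They were 0.757% and 0.238% with the block, and 0.287% and 0.0549% for passage. The median siDicer minus siScr difference over all rows was -0.01.

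Of 16 measured transporters of the major facilitator superfamily, the class of Mfsd6, 0 passed and 5 had an unadjusted p under 0.05 (10.2% of all rows), with a median of 0.0090 and 9 above 0. Differences ran from -0.10 for the glucose carrier Slc2a1 to 0.43 for Slc16a4 of the monocarboxylate carriers. The smallest unadjusted p-values belonged to Mfsd1, a lysosomal transporter, Slc16a4 and the lactate carrier Slc16a1. Mfsd1 read 10.48, 10.71 and 10.66 on the siDicer arrays, against 10.19, 10.47 and 10.26 on the siScr arrays, and the groups barely separated. Its difference was 0.31 (limma, adjusted p = 0.325; 0.0822 with the replicate block). Slc16a4 and Slc16a1 differed by 0.43 and 0.19 (adjusted p = 0.369 and 0.373).

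The fibronectin type III list, for Fndc3b, had 27 measured genes with a median of -0.02, of which 1 rose and 26 did not pass. The gene that rose was Ptpra, a receptor-type tyrosine phosphatase. It read 9.68, 9.67 and 9.77 on the siDicer arrays, against 9.17, 9.22 and 9.24 on the siScr arrays, a difference of 0.50 ± 0.06 (SE, limma, adjusted p = 0.0265). That call was lost without any 1 array (adjusted p from 0.0736 to 0.158). Ptpra and Ptpn14 hold no fibronectin type III domain by textbook knowledge and were listed in error. Without these 2, which was decided after their values were seen, 0 of 25 passed, 2 had an unadjusted p under 0.05 and the median was -0.05. The measured genes nearest to Fndc3b in name, Fndc5, Fndc7 and Fndc10, also named after their values were seen, differed by -0.02, -0.05 and -0.01.

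The PP2A-type phosphatase list, for Tiprl, had 14 measured genes, of which 0 passed and 4 had an unadjusted p under 0.05 (10.2% of all rows). Of these, 11 had differences below 0, with a median of -0.10, from -0.26 for Anp32e to 0.18 for Ankrd44. Ppp6c, the catalytic subunit of PP6 and a binding partner of Tiprl, averaged 9.60 in siDicer and 9.76 in siScr cells, a difference of -0.16 that did not pass (limma, adjusted p = 0.495). The smallest unadjusted p-values belonged to Sike1, a component of a PP2A complex, Anp32e, of a family of PP2A inhibitors, and Ankrd44, a regulatory subunit of PP6. Sike1 read 8.27, 8.15 and 8.23 on the siDicer arrays, against 8.49, 8.43 and 8.42 on the siScr arrays, with no overlap (adjusted p = 0.262). Anp32e and Ankrd44 had adjusted p of 0.316 and 0.428. The list also held Mtor and Tti1, of the TOR pathway, with differences of 0.12 and -0.16, and the kinase Mast2, which is no phosphatase gene, with -0.05. Ppp6c was named after its value was seen, as were Mtor, Tti1 and Mast2.

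The other Ttc genes gave 0 of 10 past the threshold and 0 at an unadjusted p under 0.05, with a median of -0.05 and a narrow range from -0.11 to 0.07. The smallest unadjusted p-values were those of Ttc22, Ttc4, a co-chaperone of Hsp90, and Ttc34, with differences of -0.11, -0.10 and -0.08 (limma, adjusted p = 0.591, 0.661 and 0.736). Of 35 measured genes of actin assembly and the primary cilium, the processes tied to Ttc17, 0 passed and 7 had an unadjusted p under 0.05 (10.2% of all rows). Their median was -0.0016, with 17 above 0 and 18 below. Cep170, a centrosome protein, read 8.46, 8.57 and 8.51 on the siDicer arrays, against 8.83, 8.89 and 8.81 on the siScr arrays. Those groups did not overlap, but the difference of -0.33 did not pass (adjusted p = 0.0972; 0.059 with the replicate block). Kifap3, the cargo adaptor of the kinesin-2 motor of cilia, differed by 0.35 (adjusted p = 0.151), and Arpc5, a subunit of the Arp2/3 actin nucleator, by 0.25 (adjusted p = 0.277).

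**Figure D4:**
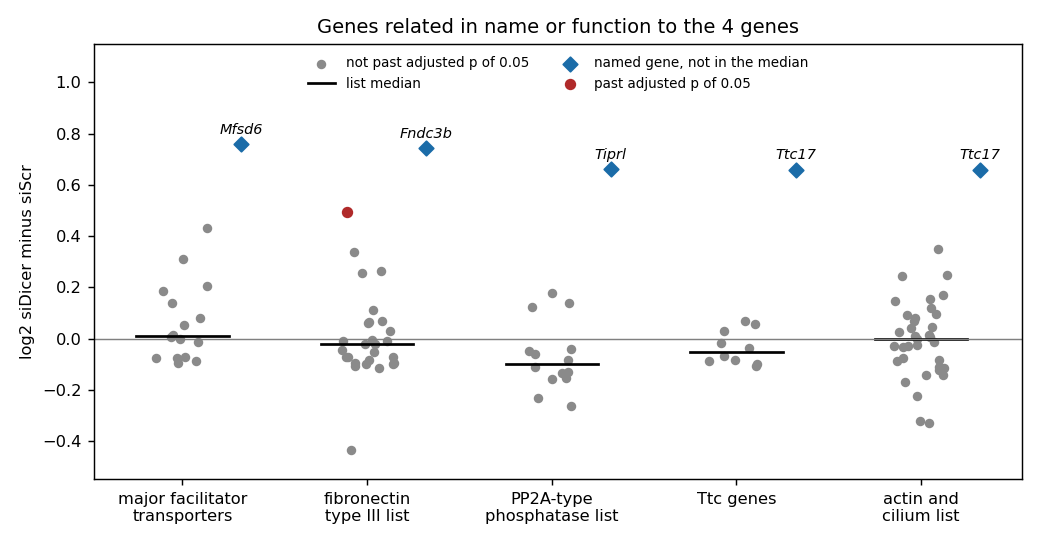
Log2 siDicer minus siScr (vertical axis) of each measured gene in the 5 lists (points, spread sideways for legibility), the list medians (bars) and the 4 named genes beside their lists (diamonds, left out of the medians). The medians lie between -0.10 and 0.0090, and Ptpra, in red, is the 1 list gene past the threshold.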

How the data were processed

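The deposited values are log2 signals per transcript cluster from mouse Clariom D arrays (WT PLUS labelling, per the labels' protocols), which the authors computed in Expression Console of Affymetrix (submitters' processing notes). Its version and normalization and the build of the rows are not given. Array medians were nearly equal, so a shift common to most RNAs would not be seen, and background compresses differences of dim rows. The number of arrays limits the precision.

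The members and lists were chosen with earlier results of these data known. A symbol was attached to 7530 rows, 455 carried several and 8398 none, and 230 symbols were updated through Entrez numbers. The siRNA comparison was fitted in limma 3.58.1 (R 4.3.3) over all 16383 rows, 3 arrays against 3, without the replicate block. That fit does not use the pairing, so a gene that did not pass in it may still differ steadily within pairs. With the block 124 rows passed upward and 39 downward, against 24 and 11. Passage was fitted with siRNA as a term. P-values were adjusted by Benjamini-Hochberg with a threshold of 0.05. Sequences are from RefSeq tables of GRCm38.p6.

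The text names the 4 genes, the 3 genes most correlated with each, the nearest 2 neighbours on each side, and in each list the genes past the threshold or else the 3 of smallest p. Deviations from the group means correlated between arrays of the same replicate number, which mark a shared passage, with r of 0.44, 0.41 and 0.24. The numbers were therefore taken as pairing the samples in the pair differences and in the replicate block. Calls given without mention of the block do not use that pairing.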

Additional observations from a re-analysis of the deposited data

How the results depend on the processing

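The 4 genes kept the direction of their siDicer to siScr difference in all alternatives that were run, from 0.59 to 0.84 log2 units, and the replicate block, with 4 of 4 genes past the threshold, changed no call among them. Tiprl did not pass after median centring (adjusted p = 0.0609), Dcaf6 did not after cyclic loess (0.0561), and Tmem87b passed in 3 of 7 alternatives. The block gave 163 changed rows and array weights 66, against 35. Leaving out 1 array gave 0 to 20 rows, 0 to 3 of the 4 genes and 0 list genes. With replicate 1 or 3 of siDicer left out, or replicate 3 of siScr, 0 rows passed, and 1815, 1208 and 1399 had an unadjusted p under 0.05. For passage, 56 rows changed in the fit reported, 117 with a trended and robust prior, 107 above the background gauge, 124 and 25 for passage 54 or 56 alone against 47, 30 without the siRNA term, and 30 to 54 without 1 array. List genes past the threshold for passage numbered 1 with the trended prior, 1 above the gauge and 2 for passage 54 alone, against 0. The passage difference of Mfsd6, past the threshold nowhere, turned to 0.066 for passage 56 alone, and ran from -0.078 to 0.021 without 1 array, above 0 without siDicer replicate 2 and without siScr replicate 3. With passage means removed, 0 of the 12 most correlated genes were the same, but that setting holds only the 3 pair differences and cannot decide the likeness. No gene of the 4 had another row to compare. The causes were not tested. Dim rows limit what the arrays show, but the 4 genes lay above the gauge.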
